A study of Mus musculus with 17 samples.

Results

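Genes that drive or mark the change of epithelial cells into mesenchymal ones were followed in mouse mammary tumours deleted for Rb and p53 or for p53 alone. They are 10 genes, the transcription factors Zeb1, Zeb2, Snai1, Snai2, Twist1, Twist2 and Prrx1 and the markers Cdh2, Vim and S100a4, out of 19938 genes measured. They were chosen by name, with earlier results of these data known, so counts of them are given as description. Each was read from the probe set that carries its symbol alone, and each had exactly 1 such probe set, so the rule that would keep the probe set with the highest mean over all 17 arrays had nothing to decide.

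In the epithelial-mesenchymal transition, epithelial cells give up E-cadherin junctions and apical-basal polarity and take on a spindle shape, mesenchymal filaments and the ability to move. ZEB and SNAIL zinc-finger proteins and TWIST helix-loop-helix proteins repress the E-cadherin gene, Cdh1, and other junction genes, while microRNAs of the miR-200 family and miR-205 repress Zeb1 and Zeb2 in turn. In the mammary gland this programme is best known from stem and basal cells, from stromal cells that express it constitutively, and from claudin-low and spindle-cell tumours.

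The study hybridised RNA of 12 mammary tumours and of normal mammary gland from 5 mice to Affymetrix Mouse Gene 1.0 ST arrays, 1 array for each sample. All mice had a mixed strain background, and neither age nor the exact alleles are in the labels. The Rb/p53 group holds 9 tumours with deletion of both Rb (gene Rb1) and p53 (gene Trp53). In 7 of these the deletion was made by MMTV-Cre, a Cre recombinase transgene driven by the mouse mammary tumour virus promoter, which acts mainly but not solely in mammary epithelium. Replicate 1 came from a nulliparous mouse, replicate 2 from a parous mouse, and replicates 3 to 7 are transplants. In the other 2, Cre was carried by an adenovirus under the CMV promoter (Ad-Cre), and both are transplants. Transplanted tumours also hold cells of the host. The p53 group holds 3 MMTV-Cre tumours described as deleted for p53 alone. The normal glands came from mice of the Rb/p53 line. The labels call the tumours independent primary tumours, and p-values here measure the spread between these samples. Whether any transplants shared a donor was not examined, and tumours of the same donor would not be independent.

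Values are log2 signals, so that a difference of 1 is a doubling, and they can be compared between arrays for a gene but not between genes. Rb1 served as a partial check of the labels. It lay between 9.29 and 9.92 on the 9 Rb/p53 arrays and between 10.93 and 11.50 on the normal arrays, with 9.93, 10.999 and 10.27 on p53 replicates 1, 2 and 3. Rb1 was lower than normal in Rb/p53 tumours (-1.67, limma adjusted p = 7.74e-07) and also in p53 tumours (-0.81, adjusted p = 0.0124). Every Rb/p53 array lay below every p53 array, but that difference of -0.86 did not pass (adjusted p = 0.112). The position of the Rb1 probes relative to the deleted part is not given in the sources used here. One p53 tumour, replicate 3, has conflicting labels. Its title places it in the Rb/p53 line, but its tissue, source and description give p53 alone and were followed here. Replicate 2 of the p53 group stands apart from the other arrays. Its Pearson correlation with them over all genes was 0.888 to 0.915, against at least 0.929 between any pair of the others, and the spread of its values between quartiles was 2.39 against 2.91 to 3.18. It also had the lowest Krt8 and Krt18 keratin signals (10.35 and 7.70) and the highest mean of 11 macrophage markers (12.46), so values without it are given where leaving it out moved a result of the p53 group.

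Against normal tissue, Rb/p53 tumours had more Snai1, Twist1, Vim and S100a4 RNA and less Zeb2 RNA. The remaining members, Zeb1, Snai2, Twist2, Prrx1 and Cdh2, did not pass the test. Thus 4 of 10 members rose and 1 fell, beside a share of all genes called of 27.6% (14.2% higher and 13.4% lower; limma, Benjamini-Hochberg adjusted p below 0.05). An unadjusted p below 0.05 was found for 6 members and 37.2% of genes. The median log2 fold of the members was 0.33, beside 0.03 over all genes. The same 5 members were those whose 9 tumour arrays all lay on one side of the 5 normal arrays. Such separation was seen upward in 7.9% and downward in 8.31% of all genes. In bulk tissue, fewer cells of a type and less RNA per cell cannot be told apart.

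**Figure D1:**
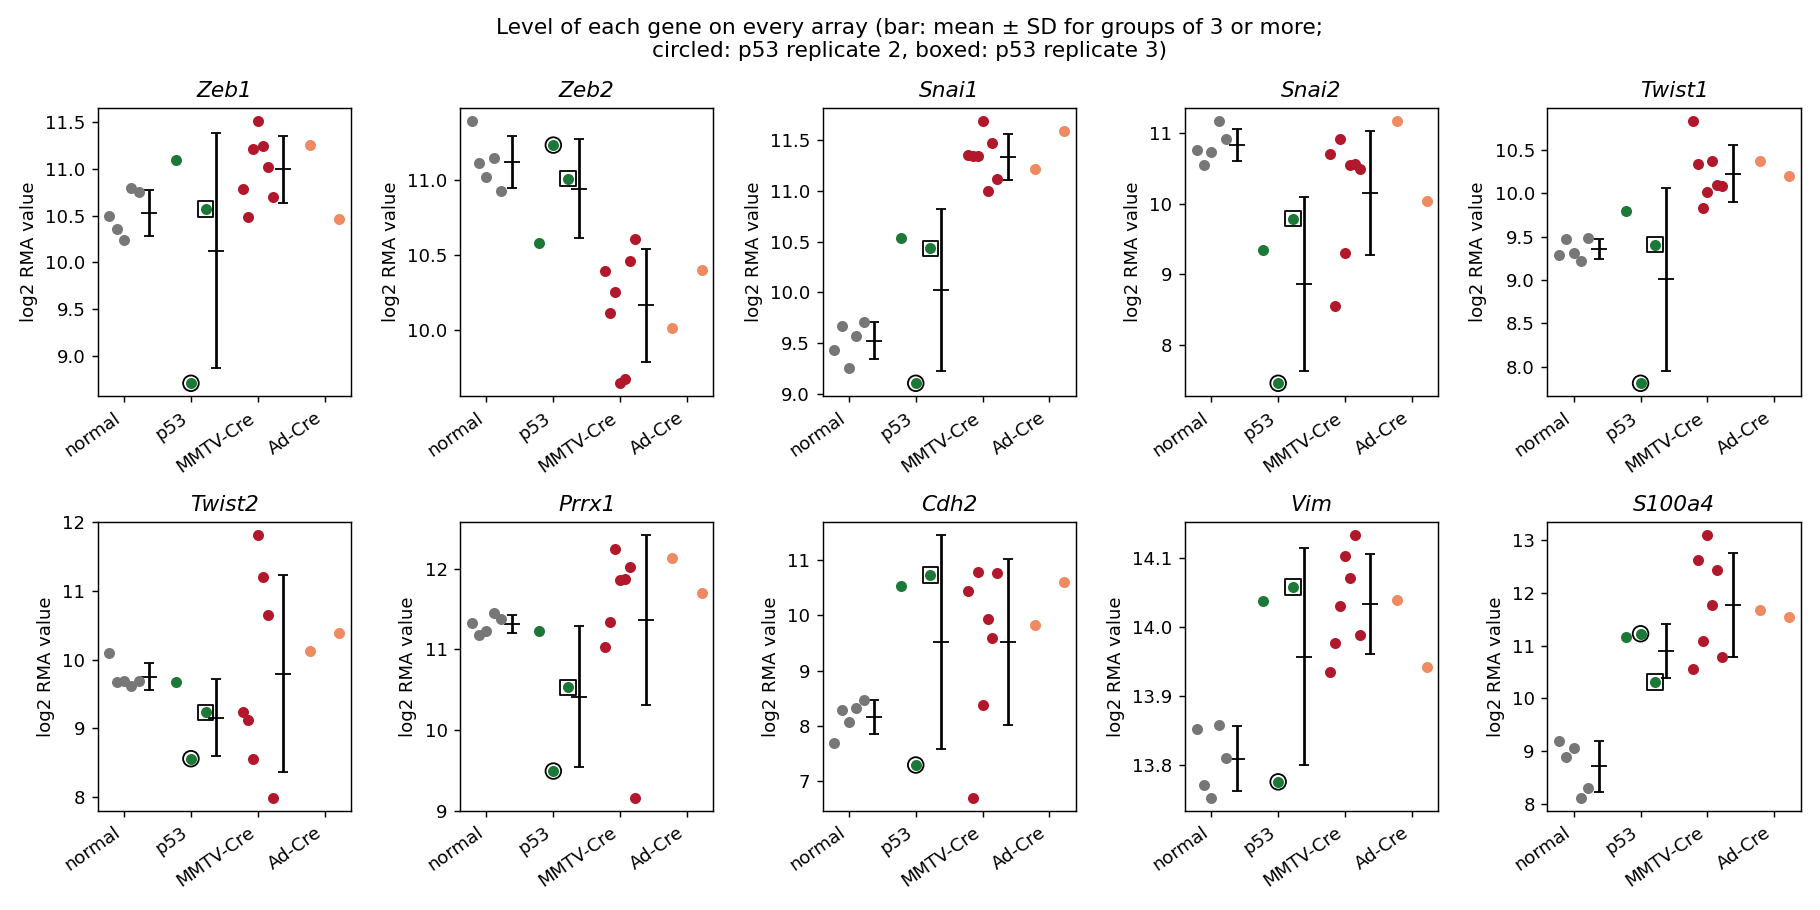
Log2 RMA value of each of the 10 genes (vertical axis, scaled per gene) on every array, by group; points are arrays and bars are mean ± SD for groups of 3 or more. Snai1, Twist1, Vim and S100a4 lie above all normal points on each of the 9 Rb/p53 arrays and Zeb2 lies below them, while the circled p53 replicate 2 is the lowest array for Zeb1, Snai1, Snai2 and Twist1.

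Snai1 encodes Snail, the founding repressor of the transition (probe set 10478884). On the 7 MMTV-Cre tumours its log2 values ran from 11.002 to 11.69 with a median of 11.34, and the 2 Ad-Cre tumours gave 11.22 and 11.59. The 5 normal arrays gave 9.43, 9.67, 9.26, 9.57 and 9.70. All 9 tumours thus sat well clear of the highest normal array. The difference was 1.82 ± 0.19 (log2 fold ± SE, n = 9 and 5), a 3.53-fold rise (limma adjusted p = 1.6e-06), which was larger than that of 99.3% of genes. Snail is known to bind E-boxes of the sequence CAGGTG. The 250 bases before the start of Snai1 are printed because they hold a single such box, on the other strand as CACCTG (capitals), 126 bases before the start (RefSeq, GRCm38.p6, chr2:167537945-167538194, plus strand).
Snai1 upstream: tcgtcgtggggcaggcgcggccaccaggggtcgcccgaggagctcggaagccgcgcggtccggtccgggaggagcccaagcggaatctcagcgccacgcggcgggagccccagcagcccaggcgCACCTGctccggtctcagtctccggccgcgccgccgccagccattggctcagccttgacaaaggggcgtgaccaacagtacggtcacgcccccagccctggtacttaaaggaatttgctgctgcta
Of 27025 genes with a promoter in the RefSeq table, 19.4% have CAGGTG on either strand within that distance. Among the 7 members with an entry (Zeb2, Snai1, Twist1, Twist2, Prrx1, Vim and S100a4), Snai1 alone has it. A match describes these letters and shows no binding. Entries for Zeb1, Snai2 and Cdh2 are missing.

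Snai2 encodes Slug, the Snail relative that marks basal and stem cells of the normal gland (probe set 10433776). Its signal on the 7 MMTV-Cre tumours ran from 8.55 (replicate 2) to 10.92 with a median of 10.55, beside 11.18 and 10.05 on the Ad-Cre tumours. Normal tissue gave 10.77, 10.55, 10.74, 11.17 and 10.92. MMTV-Cre replicates 2 and 4, at 8.55 and 9.31, were the lowest tumours. Ad-Cre replicate 2, at 10.05, and MMTV-Cre replicate 7, at 10.50, also lay below every normal array. The log2 fold of -0.57 ± 0.41 did not pass (limma adjusted p = 0.351). Snai1 and Snai2 therefore had opposite signs against normal tissue, with a call for Snai1 alone.

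Zeb1 and Zeb2, the paired zinc-finger and homeodomain repressors that miR-200 restrains, also parted (probe sets 10453678 and 10482448). Zeb1 ran from 10.49 to 11.52 with a median of 11.02 on the MMTV-Cre tumours and was 11.26 and 10.47 on the Ad-Cre tumours. In normal tissue Zeb1 read 10.50, 10.36, 10.24, 10.80 and 10.75, so the lower tumours overlapped it and the higher ones lay above. Its fold of 0.44 ± 0.29 did not pass (limma adjusted p = 0.314) unless arrays were weighted by their quality, which gave a rise of 0.49 (adjusted p = 0.0301). Zeb2 ran from 9.65 to 10.61 with a median of 10.26 on the MMTV-Cre tumours, beside 10.01 and 10.40 on the Ad-Cre tumours and 11.39, 11.11, 11.02, 11.14 and 10.92 in normal tissue. Every Rb/p53 tumour lay below every normal array, and the lowest were MMTV-Cre replicates 4 and 5 at 9.65 and 9.68. Zeb2 fell by 0.94 ± 0.16 on the log2 scale, to 1.92-fold less (limma adjusted p = 3.19e-04). Zeb2 is also known as a factor of macrophages, whose 11 markers had higher means in these tumours than in normal tissue (11.19 ± 0.41, SD, against 10.42 ± 0.21), and the part of these cells in the Zeb2 value was not tested.

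Twist1, a helix-loop-helix repressor needed for metastasis in mammary tumour models (probe set 10395320), ran from 9.83 to 10.84 with a median of 10.09 on MMTV-Cre tumours and was 10.38 and 10.20 on Ad-Cre tumours. Normal tissue gave 9.29, 9.47, 9.32, 9.22 and 9.48. No tumour array reached down to the normal ones, and the nulliparous tumour, replicate 1, was the highest. The rise was 0.88 ± 0.24, or 1.85-fold (limma adjusted p = 0.0106). With only the 2 tumours not labelled as transplants, the fold was 1.23 and missed the threshold (adjusted p = 0.103).

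Twist2, its close relative (probe set 10348632), spread widely among the tumours, from 7.99 to 11.81 with a median of 9.24 on MMTV-Cre arrays, and read 10.12 and 10.39 on Ad-Cre arrays. The normal arrays gave 10.10, 9.67, 9.68, 9.61 and 9.69. MMTV-Cre replicates 4, 5 and 6 lay above all normal arrays at 11.81, 11.20 and 10.64, while replicates 1, 2, 3 and 7 lay below them at 9.24, 9.13, 8.56 and 7.99. The mean difference of 0.15 ± 0.50 did not pass (limma adjusted p = 0.883), and it turned to -0.09 without MMTV-Cre replicate 4, to -0.01 without replicate 5 and to -0.57 with the non-transplanted tumours alone. A mean near that of normal tissue therefore covers tumours on both sides of it.

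Prrx1, a paired-type homeobox factor of mesenchyme (probe set 10359624), showed a single low tumour. MMTV-Cre tumours ran from 9.16 (replicate 7) to 12.25 with a median of 11.86, Ad-Cre tumours gave 12.13 and 11.70, and normal tissue gave 11.32, 11.18, 11.23, 11.45 and 11.38. MMTV-Cre replicates 3 to 6 and both Ad-Cre tumours lay above all normal arrays. Replicate 7, also the lowest for Twist2, lay well below the next tumour at 11.03. The fold of 0.17 ± 0.41 did not pass (limma adjusted p = 0.824) and was -0.13 with the non-transplanted tumours alone.

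Among the markers, S100a4, a calcium-binding protein of motile fibroblasts, macrophages and metastatic cells, had the largest change of the 10 (probe set 10493812). Its log2 values ran from 10.56 to 13.10 with a median of 11.76 on MMTV-Cre tumours, and were 11.67 and 11.54 on Ad-Cre tumours and 9.19, 8.89, 9.06, 8.12 and 8.29 on normal arrays. The lowest tumour, MMTV-Cre replicate 1, was still above the highest normal array. The rise was 3.02 ± 0.37, or 8.10-fold (limma adjusted p = 1.14e-05), above that of 99.9% of genes. Macrophages also express S100a4, and the part of their higher markers in its value was not tested.

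Vim encodes vimentin, the intermediate filament of mesenchymal cells (probe set 10469322). The MMTV-Cre tumours ran from 13.93 to 14.13 with a median of 14.03, the Ad-Cre tumours gave 14.04 and 13.94, and normal tissue gave 13.85, 13.77, 13.75, 13.86 and 13.81. The groups did not overlap, yet the rise was 0.22 ± 0.06, or 1.16-fold (limma adjusted p = 0.0181). It was lost under cyclic loess normalisation (0.13, adjusted p = 0.126) and with the non-transplanted tumours alone (0.15, adjusted p = 0.543). These values were close to the highest signal on any array, 14.65, and whether the scale is compressed there was not tested.

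Cdh2 encodes N-cadherin, whose gain in place of E-cadherin is the classical cadherin switch (probe set 10457644). On MMTV-Cre tumours it ran from 6.70 to 10.79 with a median of 9.93, Ad-Cre tumours gave 9.83 and 10.60, and normal arrays gave 7.69, 8.28, 8.07, 8.33 and 8.47. MMTV-Cre replicate 2, the tumour of the parous mouse, was below all normal arrays at 6.70, and replicate 4 was among them at 8.37. All other tumours exceeded every normal array, at 9.59 or more. The mean difference of 1.50 ± 0.65 (2.83-fold) missed the threshold (limma adjusted p = 0.0973). It passed without MMTV-Cre replicate 2 (1.87, adjusted p = 0.0119), with the transplants alone (1.82, adjusted p = 0.0218), with array weights (1.69, adjusted p = 0.0041) and with p53 replicate 2 left out and replicate 3 moved (1.61, adjusted p = 0.0347).

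Cell types that express these genes constitutively also differed between tumours and normal tissue. Among all genes, 14.2% were called higher and 13.4% lower in Rb/p53 tumours. Of 11 fibroblast markers, 4 fell and 0 rose in Rb/p53 tumours (Lum -3.32, Dpt -3.17). Their mean was 10.80 ± 0.40 (SD; 10.13 to 11.33) against 11.60 ± 0.15 (11.43 to 11.77) in normal tissue. Of 11 macrophage markers, 5 rose (Cx3cr1 1.89, Fcgr1 1.82) and 0 fell, with array means of 10.48 to 11.90 against 10.22 to 10.68. Endothelial markers were lower in 3 of 9 (Tek -2.24) and pericyte and smooth muscle markers in 5 of 8 (Myh11 -2.74), and 0 rose in either list. T and NK cell markers fell in 4 of 9 (Cd3g -2.06). The 9 adipocyte markers measured all fell (median -4.93), as did 5 of 6 skeletal muscle markers (median -1.63), 7 of 7 basal (median -2.58) and 4 of 8 luminal epithelial markers (median -1.68). Of all these markers, Cd3d alone was below the 25th percentile of every array. The part of these cells in the members' values was not tested.

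**Figure D2:**
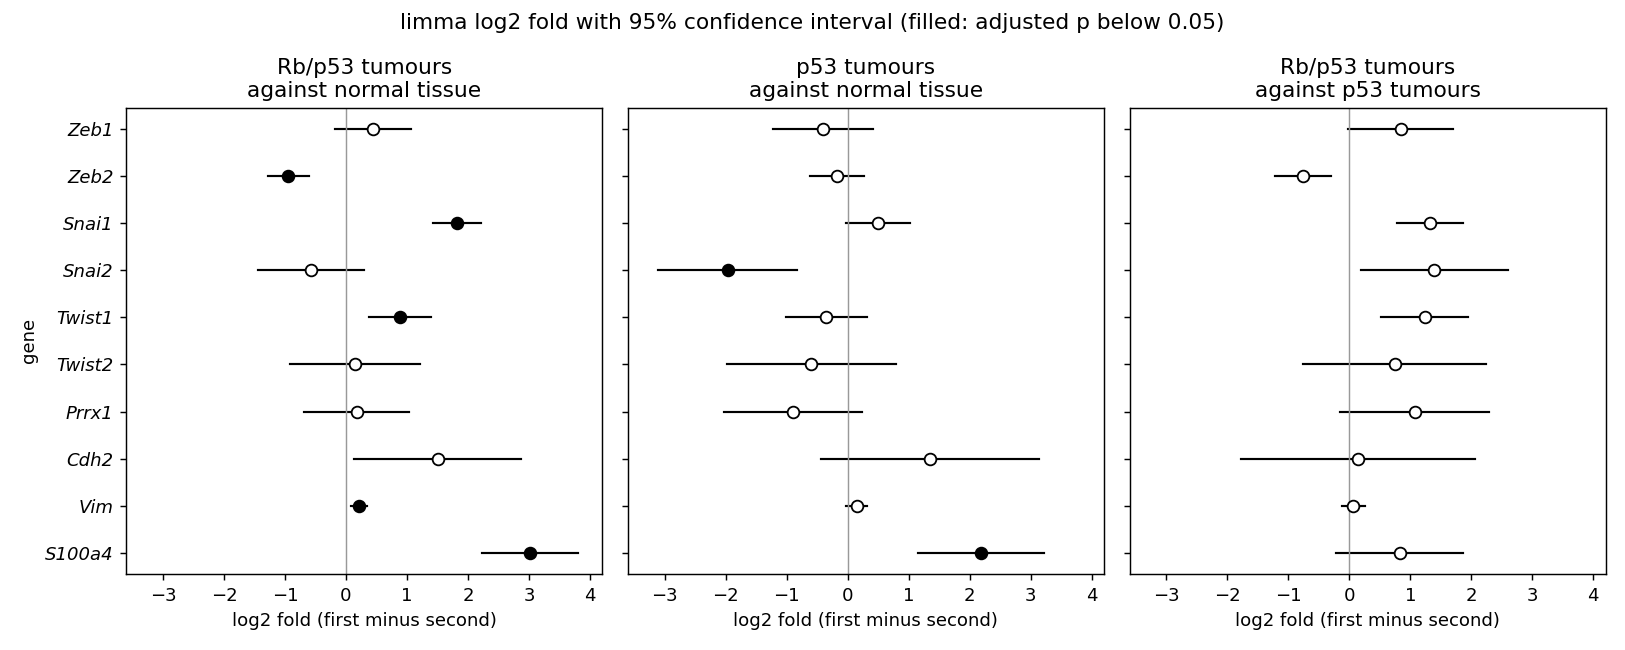
limma log2 fold of each of the 10 genes (horizontal axis, first group minus second) with its 95% confidence interval in the 3 comparisons of tumour genotype and normal tissue; filled points passed an adjusted p of 0.05. Filled are 5 points for Rb/p53 tumours against normal tissue, those of Snai2 and S100a4 for p53 tumours, and 0 between the tumour genotypes.

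Tumours with deletion of p53 alone were set against the same 5 normal arrays, so this comparison shares its controls with the first. S100a4 rose and Snai2 fell, and the other 8 members did not pass. These 2 calls stand beside 20.4% of all genes called (8.34% higher and 12.1% lower), and the median log2 fold of the members was -0.26 beside 0.09 over all genes. Unadjusted, it was 2 members and 35.4% of genes. S100a4 read 11.17, 11.23 and 10.31 on p53 replicates 1, 2 and 3, all above the normal arrays (a separation seen in 9.87% of genes), and rose by 2.19 ± 0.49, or 4.56-fold (limma adjusted p = 0.00414). Snai2 read 9.34, 7.46 and 9.79, all below normal tissue (13.5% of genes), and fell by 1.97 ± 0.54 on the log2 scale (adjusted p = 0.0155).

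Much of this turned on 1 array, p53 replicate 2. Zeb1 read 11.10, 8.70 and 10.57 on replicates 1, 2 and 3, Snai1 10.54, 9.10 and 10.43, and Twist1 9.80, 7.81 and 9.41. Cdh2 read 10.53, 7.29 and 10.73, and Vim 14.04, 13.78 and 14.06. Prrx1 gave 11.23, 9.49 and 10.53, and Twist2 9.68, 8.56 and 9.23. In these 7 genes, as in Snai2, replicate 2 was the lowest of the group, whereas it was the highest for S100a4 and for Zeb2, which read 10.58, 11.23 and 11.01. Without it, Snai1 rose by 0.96 (limma adjusted p = 6.88e-04), Cdh2 by 2.47 (adjusted p = 0.0430), and Vim by 0.24 (adjusted p = 0.0342). S100a4 kept its rise at 2.03 (adjusted p = 0.0186), and Snai2 lost its call (-1.27, adjusted p = 0.100). The number of members called went from 2 to 4, while that of all genes went from 4073 to 4233, and with array weights it was 5 members and 4786 genes. Zeb1 turned from -0.40 to 0.31 and Twist1 from -0.35 to 0.25, neither of which passed. The 11 macrophage markers, of which 10 of 11 rose in p53 tumours and 0 fell, had array means of 11.23, 12.46 and 11.96, and the part of these cells in the values of replicate 2 was not tested. With replicate 2 left out and replicate 3 moved to the Rb/p53 group, 1 p53 tumour remained, taken to vary like the other groups. Snai1 then passed (1.01, adjusted p = 0.0436), and S100a4 (2.46, adjusted p = 0.0531) and Snai2 (-1.49, adjusted p = 0.165) did not.

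What differs between tumours with and without deletion of Rb was asked within the 12 tumour arrays. No member passed. Among all genes 1 did (0.00502%), and 20.6% had an unadjusted p below 0.05, beside 4 of the 10 members. The log2 folds of the members had a median of 0.83, beside -0.03 over all genes. Snai1 was 1.32 ± 0.25 higher (11.34 ± 0.22, SD, n = 9, against 10.02 ± 0.80, n = 3), with every Rb/p53 array above every p53 array (limma adjusted p = 0.109). Twist1 was 1.23 ± 0.33 higher on average (10.24 ± 0.29 against 9.01 ± 1.06), again without overlap (adjusted p = 0.137). Such upward separation was found in 1.67% of genes, and downward separation in 1.47%. Snai2 (1.40 ± 0.56, adjusted p = 0.209) and Zeb2 (-0.76 ± 0.21, adjusted p = 0.146) also had an unadjusted p below 0.05, and their arrays overlapped. These differences rested in part on p53 replicate 2. Without it, Snai1 was 0.86 higher (adjusted p = 0.242), Twist1 0.63 (adjusted p = 0.453) and Snai2 0.69 (adjusted p = 0.799), and Zeb2 was at -0.62 (adjusted p = 0.535).

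Prrx1 (1.07 ± 0.56), Zeb1 (0.84 ± 0.39), S100a4 (0.83 ± 0.48) and Twist2 (0.74 ± 0.69) were higher on average in Rb/p53 tumours with intervals that included 0. Cdh2 (0.15, 95% interval -1.77 to 2.07) and Vim (0.07, -0.12 to 0.26) were nearest to 0, though the interval of Cdh2 spans differences of more than 1 either way. The outcome turned on which p53 arrays were used, among them the tumour with conflicting labels. Without p53 replicate 3, 1358 genes passed, among them Snai1 (1.52, limma adjusted p = 0.0202) and Twist1 (1.44, adjusted p = 0.0487). With it moved to the Rb/p53 tumours 2044 genes passed, with Snai1 as the 1 member (1.43, adjusted p = 0.0282). In both of these fits p53 replicates 1 and 2 alone made up the p53 group. Replicate 2 is the array that stands apart, so the label of replicate 3 and the weight of replicate 2 cannot be told apart there. When the normal arrays were kept in the fit, so that they helped to estimate the spread, 356 genes passed, and so did Snai1 (adjusted p = 0.0220) and Twist1 (adjusted p = 0.0401). Leaving out p53 replicate 1 gave 19 genes and p53 replicate 2 or Ad-Cre replicate 2 gave 2. Quantile or cyclic loess normalisation, or leaving out low genes, called 1 gene higher and 1 lower, in place of 0 and 1. Without p53 replicate 2, Zeb1 was at 0.13, Prrx1 at 0.61, Twist2 at 0.44 and S100a4 at 0.99, and Cdh2 and Vim turned to -0.96 and -0.02. The mean of 11 macrophage markers was 11.88 ± 0.62 in p53 and 11.19 ± 0.41 in Rb/p53 tumours. By limma 0 of the 11 passed, but 6 had an unadjusted p below 0.05 (median log2 fold -0.77). Of 9 T and NK cell markers 0 passed and 6 had an unadjusted p below 0.05 (median -0.36). Unadjusted, it was 1 of 11 fibroblast markers and 20.6% of all genes. The part of these cells in the members' differences was not tested.

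Within the Rb/p53 tumours, Ad-Cre and MMTV-Cre delivery (n = 2 and 7) were compared next. The 3 p53 tumours were kept in this fit as a group of their own and also entered the estimate of the spread. Both Ad-Cre tumours are transplants, as are 5 of the 7 MMTV-Cre tumours, so delivery is partly mixed with transplantation. By limma, 0 of the 10 members passed and 0 had an unadjusted p below 0.05, beside 0.00502% of all genes called and 2.07% unadjusted. The intervals were wide, from -0.28 to 0.20 for Vim to -1.69 to 3.09 for Cdh2 on the log2 scale, and Snai1 differed by 0.07 (-0.62 to 0.76). All 10 members overlapped between the groups, where 1.98% of genes separated upward and 3.05% downward. Over all genes 1 passed, which became 30 without Ad-Cre replicate 1 and 8 without Ad-Cre replicate 2, still with 0 members. A fit on the 9 Rb/p53 arrays alone, or with MMTV-Cre transplants only, likewise called 0 members and 1 gene. Among MMTV-Cre tumours, transplants (n = 5) and the other tumours (n = 2) gave 0 members as well, beside 0.0251% of genes (0.0201% lower in transplants), and 1 member had an unadjusted p below 0.05, beside 7.92% of genes. Twist1 was 0.51 ± 0.18 lower in transplants on average (unadjusted p = 0.0261, limma adjusted p = 0.61), and Vim alone did not overlap, the transplants being above by 0.11 ± 0.08 (8.8% of genes separate upward and 5.46% downward). The 5 genes called overall became 158 without MMTV-Cre replicate 1, 10 without replicate 2 and 9 without replicate 4, with 0 members each time.

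The members differed greatly in how much they varied from one Rb/p53 tumour to another. The SD over the 9 arrays was 1.35 for Cdh2 and 1.26 for Twist2, larger than for 99.2% and 99.1% of genes. Prrx1 (0.95), S100a4 (0.86) and Snai2 (0.84) followed, each above at least 96.5% of genes. Zeb1 (0.37), Zeb2 (0.34) and Twist1 (0.29) were steadier, Snai1 (0.22) was close to the median gene (0.19), and Vim (0.07) varied less than all but 1.63% of genes. These ranks are over genes of every signal level, which was not matched, and Vim lay near the highest signal on any array. In normal tissue the SDs of Twist2, Prrx1 and Snai2 were 0.20, 0.11 and 0.23. Those of S100a4 (0.48) and Cdh2 (0.30) were larger than for 96.5% and 87.4% of genes there too. Vim (0.05) again varied less than all but 2.04% of genes. S100a4 and Snai1, the members with the largest rises, lay far apart in their SD over the Rb/p53 tumours.

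Pairs of members were compared over the 9 Rb/p53 tumours, a set of 45 pairs taken after the values had been seen, and none passed an exact permutation test after Benjamini-Hochberg adjustment. The strongest negative one was that of Cdh2 and S100a4. Its Pearson r was -0.79 (exact permutation p = 0.0056, adjusted p = 0.235) and its Spearman rho -0.85 (exact permutation p = 0.00607, adjusted p = 0.273). It was -0.82 without the 2 arrays farthest from the median of S100a4, MMTV-Cre replicates 4 and 1. The 2 tumours lowest in Cdh2, MMTV-Cre replicates 2 and 4 at 6.70 and 8.37, were the highest in S100a4 at 12.62 and 13.10. Snai2 and Cdh2 had r = 0.85 (exact permutation p = 0.0104, adjusted p = 0.235) but rho = 0.43 (exact permutation p = 0.250), and r turned to -0.26 without those same tumours, so the relation rests on MMTV-Cre replicates 2 and 4. Zeb1 and Vim had r = 0.76 (exact permutation p = 0.0230, adjusted p = 0.345) and rho = 0.72 (exact permutation p = 0.0369), and r = 0.95 without MMTV-Cre replicates 6 and 1.

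**Figure D3:**
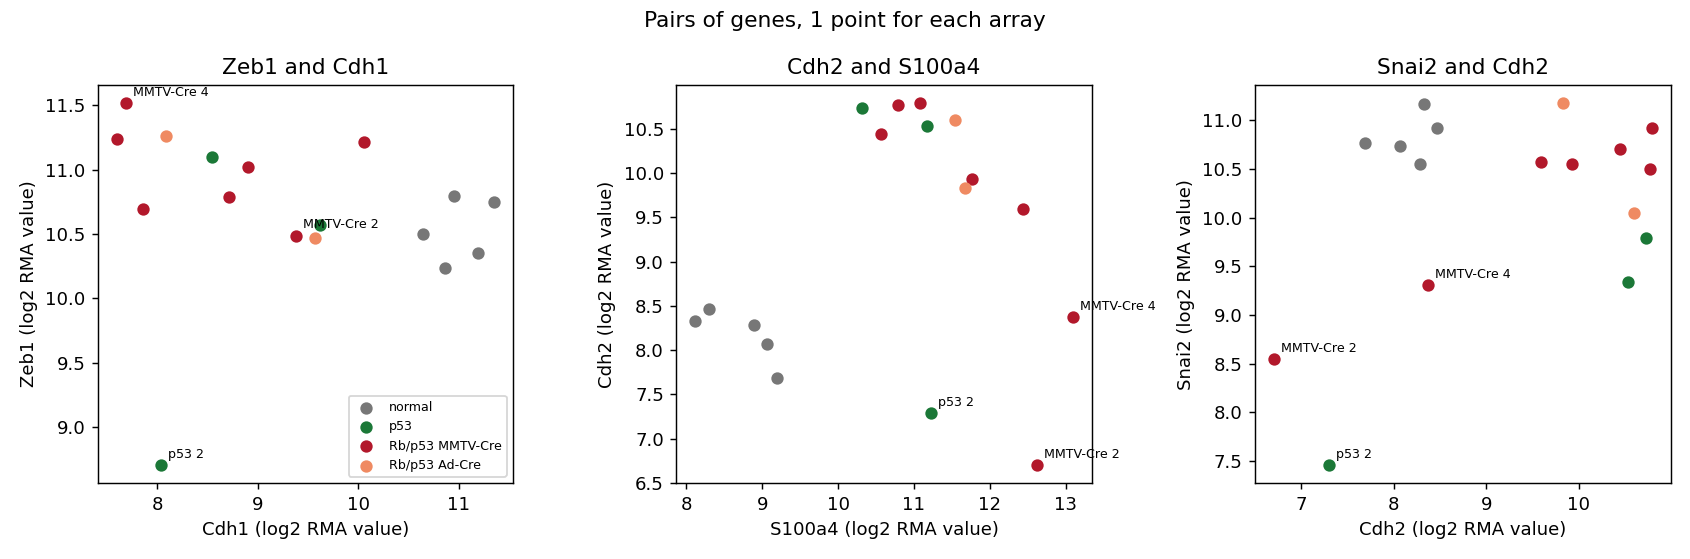
Log2 RMA values of Zeb1 against Cdh1, Cdh2 against S100a4 and Snai2 against Cdh2 (axes as labelled), 1 point for each of the 17 arrays, coloured by group. MMTV-Cre replicates 2 and 4 combine low Cdh2 (6.70 and 8.37) with the highest S100a4 (12.62 and 13.10), and all 5 normal arrays have more Cdh1 than any tumour.

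E-cadherin, Cdh1, is the gene these repressors are best known for silencing. It read from 7.60 to 10.06 with a median of 8.71 on the 9 Rb/p53 tumours and 8.55, 8.04 and 9.62 on the p53 tumours, against 10.65, 11.19, 10.87, 10.96 and 11.36 in normal tissue. Every tumour was below every normal array, and Cdh1 fell by 2.35 ± 0.39 in Rb/p53 tumours (limma adjusted p = 2.41e-04) and by 2.27 ± 0.51 in p53 tumours (adjusted p = 0.00449) on the log2 scale. Across the 9 Rb/p53 tumours, no correlation of a member with Cdh1 passed (10 relations; smallest adjusted p = 0.736, exact permutation test, two-sided). Zeb1 had r = -0.46 (p = 0.208, exact permutation) and rho = -0.55 (p = 0.133, exact permutation), and r = -0.75 without the 2 arrays farthest from the median of Cdh1, MMTV-Cre replicates 3 and 5. Zeb2 had the opposite sign, with r = 0.47 (p = 0.203, exact permutation) and rho = 0.42 (p = 0.270, exact permutation), and r = 0.36 without those arrays. For Snai1 r was 0.34 (p = 0.368, exact permutation), rho was 0.32 (p = 0.410, exact permutation), and r was 0.22 without them.

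The other genes of the programme were read from lists chosen with earlier results of these data known, and their counts are given as description. In Rb/p53 tumours, 14.2% of all genes were called higher than normal and 13.4% lower. Epithelial junction genes, which the repressors act on, were lower in 13 of 13 in Rb/p53 tumours, with a median log2 fold of -1.65. Mal2, a protein of apical transport, had the largest difference (-3.05 ± 0.40, limma adjusted p = 2.38e-05), followed by Epcam, an epithelial adhesion molecule (-2.65 ± 0.71, adjusted p = 0.0097). Epcam ran from 7.06 to 11.06 on the 9 Rb/p53 arrays and from 11.89 to 12.18 in normal tissue, with MMTV-Cre replicates 7, 5 and 4 lowest. Luminal and basal epithelial markers were lower as well (4 of 8 and 7 of 7), and their part in the junction values was not tested. Upstream bases of Epcam and Rab25, a GTPase of apical recycling that fell by 2.31 ± 0.40, are shown because each holds 2 CAGGTG boxes (capitals, on either strand) in the 250 bases before the start (RefSeq, GRCm38.p6). In Epcam they lie 187 and 19 bases before it (chr17:87635729-87635978, plus strand), and in Rab25 64 and 53 (chr3:88548280-88548529, minus strand). Ocln and Cldn7 also hold 2 boxes each before 1 start and 0 before another, and are not printed.
Epcam upstream: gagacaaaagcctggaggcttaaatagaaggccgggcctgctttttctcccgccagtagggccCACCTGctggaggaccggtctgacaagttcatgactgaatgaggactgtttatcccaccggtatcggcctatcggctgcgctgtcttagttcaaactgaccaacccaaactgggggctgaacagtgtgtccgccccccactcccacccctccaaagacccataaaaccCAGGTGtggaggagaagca
Rab25 upstream: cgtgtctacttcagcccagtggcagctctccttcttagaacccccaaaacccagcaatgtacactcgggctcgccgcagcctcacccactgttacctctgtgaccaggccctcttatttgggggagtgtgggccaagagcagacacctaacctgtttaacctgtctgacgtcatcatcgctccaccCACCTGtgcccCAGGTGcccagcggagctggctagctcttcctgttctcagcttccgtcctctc
Of the 13 junction genes 9 have an entry, and 7 of these (77.8%) hold CAGGTG on either strand, beside 19.4% of all genes in the table. Cdh1, Mal2, Llgl2 and St14 are missing. Among genes with an entry, 0 of 10 further mesenchymal markers hold it. The same holds for 0 of 7 further transition factors and 0 of 11 of their partners and inhibitors. It is held by 2 of 11 cadherin, filament and S100 relatives of the markers. Of the factors that guard the epithelial state, 2 of 4 hold it. These are counts of letters, and no binding was measured. The junction genes were listed as targets of these repressors, so that choice itself favours a high share among them.

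Of the factors that guard the epithelial state, 8 of 9 fell in Rb/p53 tumours (median log2 fold -1.51). Elf5, the ETS factor of the luminal alveolar lineage, fell by 3.86 ± 0.43 on the log2 scale (limma adjusted p = 3.29e-06), and its relative Ehf fell by 3.28 ± 0.54 (adjusted p = 2.21e-04). Esrp1, a splicing factor of epithelial cells, fell by 2.73 ± 0.46, and Grhl2, a Grainyhead factor that opposes Zeb1, fell by 1.60 ± 0.23. Ovol2, another repressor of Zeb1, did not pass (-0.09 ± 0.07, adjusted p = 0.39). Elf5 was highest among the 9 tumours in MMTV-Cre replicate 2 (9.53) and Ad-Cre replicate 2 (9.05), and at most 7.70 in the others, against 11.31 to 11.57 in normal tissue. MMTV-Cre replicate 2 was also the tumour lowest in Cdh2 and Snai2.

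The microRNAs that restrain Zeb1 and Zeb2 are seen on this array through their hairpins. Their mature strands are shown to set out which share a target rule: seed bases 2 to 8, in capitals, pair with the target (RefSeq, GRCm38.p6).
mmu-miR-200b-3p: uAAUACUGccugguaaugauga
mmu-miR-200c-3p: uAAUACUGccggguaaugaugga
mmu-miR-429-3p: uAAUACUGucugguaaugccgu
mmu-miR-200a-3p: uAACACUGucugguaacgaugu
mmu-miR-141-3p: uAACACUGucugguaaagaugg
mmu-miR-205-5p: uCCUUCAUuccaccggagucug
miR-200b, miR-200c and miR-429 share the seed AAUACUG, miR-200a and miR-141 share AACACUG, and miR-205 has CCUUCAU. Of 5 hairpins measured alone (Mir429 was not), 4 fell in Rb/p53 tumours (median log2 fold -0.60). Mir200b read 5.45 to 6.32 on the 9 Rb/p53 arrays and 8.36, 7.49, 8.13, 7.55 and 7.49 in normal tissue, and fell by 1.97 ± 0.17 on the log2 scale (limma adjusted p = 1.33e-07). Mir205 read 5.53 to 6.21 against 6.72 to 7.48 and fell by 1.09 ± 0.15 on the same scale (adjusted p = 2.68e-05), and Mir200a fell by 0.60 ± 0.11. On the tumours Mir200b and Mir205 were below the 25th percentile of each array, and Mir141 was so on all 17 arrays. The values carry no detection call, so the sizes of these differences are uncertain where the tumour side is this dim. With genes of low mean left out, 1 hairpin remained a call. Mir200c, at -0.25 ± 0.11, did not pass (adjusted p = 0.121). Such probes detect hairpin or precursor RNA, so mature microRNA was not measured. Beside these falls, Zeb1 did not pass and Zeb2 was lower.

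**Figure D4:**
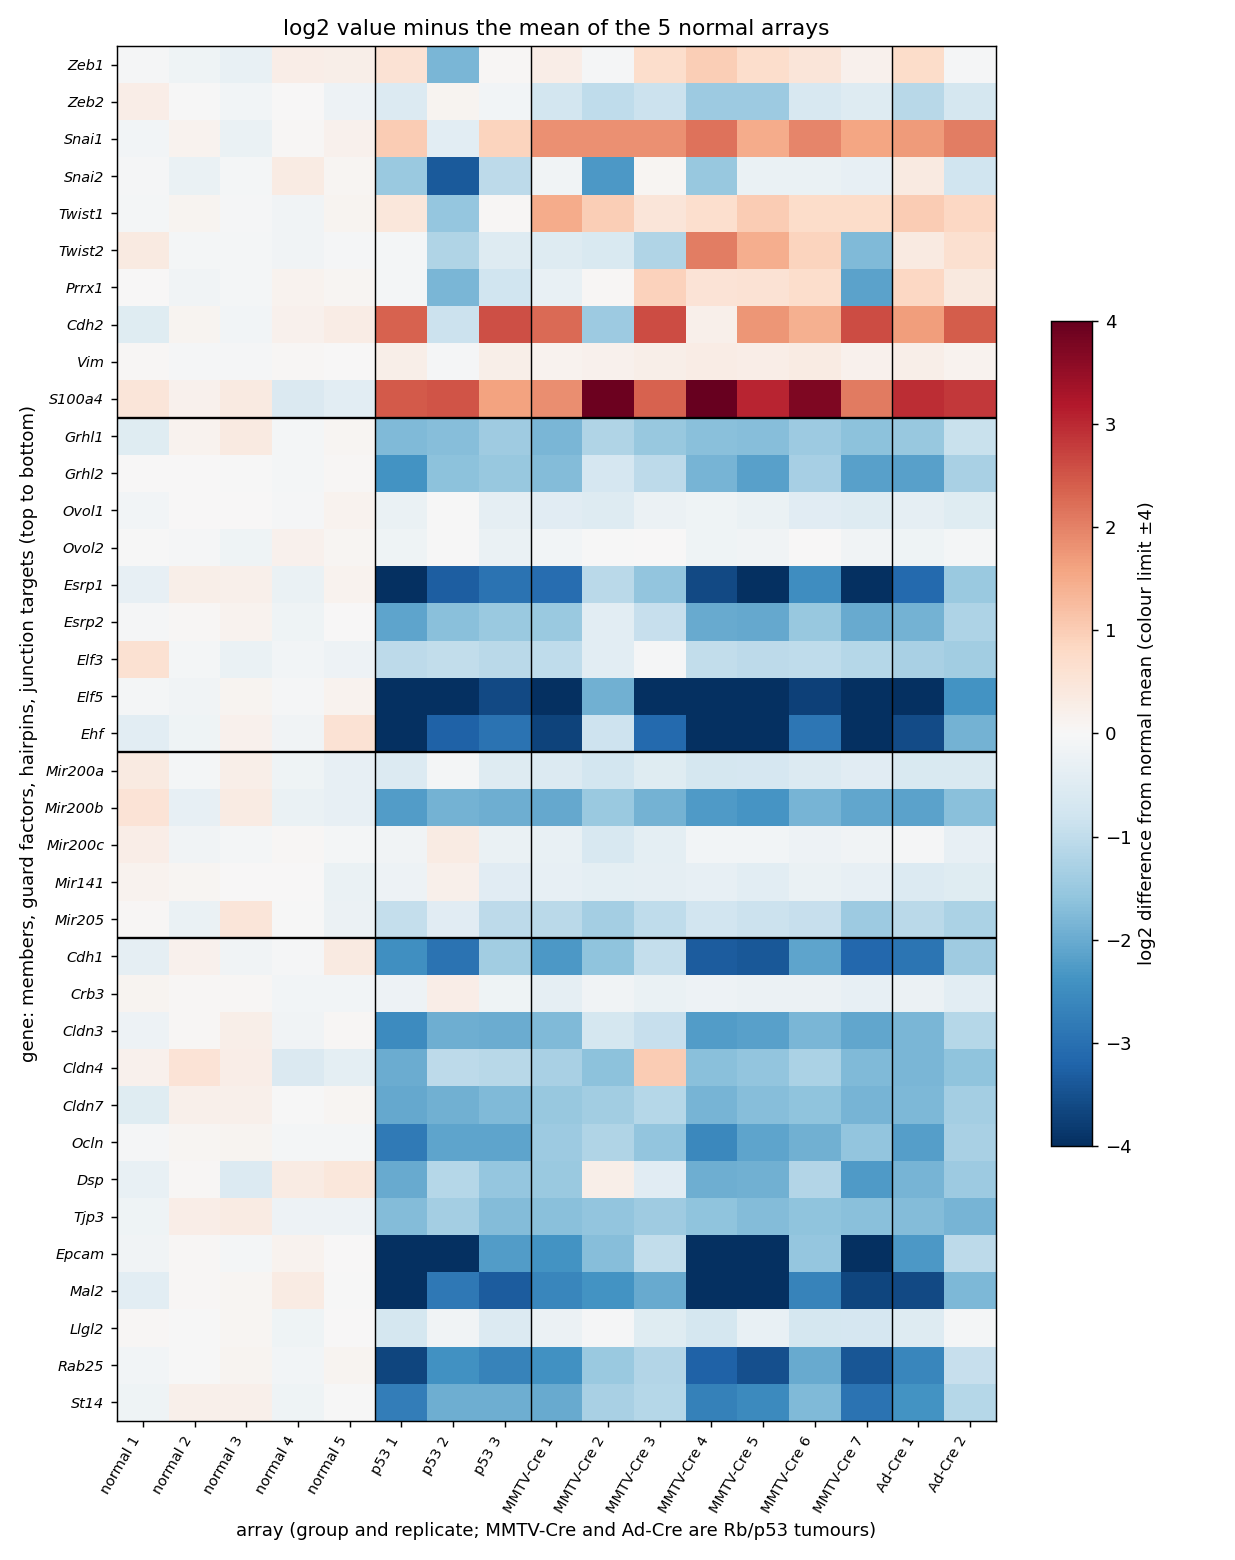
Log2 difference of each gene (rows: the 10 members, epithelial guard factors, microRNA hairpins and junction genes) from the mean of the 5 normal arrays, for every array (columns by group and replicate); red is higher and blue lower, with colours limited at 4 either way. The rows of Elf5, Ehf, Esrp1, Mir200b, Cdh1, Epcam and Mal2 are blue on all 12 tumours and those of Ovol2, Crb3 and Llgl2 are pale, whereas the member rows differ from one another and from tumour to tumour.

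Further factors of the transition were less uniform. In Rb/p53 tumours 3 of 12 rose and 1 fell (median log2 fold 0.38), beside 14.2% of all genes called higher and 13.4% lower. Hmga2, a chromatin protein upstream of Snai1 and Twist1, read 9.79 to 12.16 on the 9 arrays against 7.54 to 7.89 in normal tissue and rose by 3.19 ± 0.50 (limma adjusted p = 1.53e-04). Foxc2 rose by 1.60 ± 0.56 (adjusted p = 0.0426). That call was lost without any of the 5 normal arrays, either of the Ad-Cre arrays, or any of MMTV-Cre replicates 3, 4 and 6 (adjusted p = 0.0569 to 0.095). Tcf4 (0.09 ± 0.21) and Sox9 (0.22 ± 0.46) did not pass, and Tcf4 was -0.05 under cyclic loess. With array weights 7 of the 12 were called.

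Of the partners and inhibitors of the factors, 2 of 15 were higher and 2 lower, beside 27.6% of all genes called (median log2 fold 0.25). Id4 and Id2, helix-loop-helix proteins that bind partners of TWIST without binding DNA, fell by 1.99 ± 0.20 (limma adjusted p = 1.07e-06) and 0.76 ± 0.19 (adjusted p = 0.00526) on the log2 scale. Id1 did not pass (0.14 ± 0.24). The 2 that rose were Ajuba, a corepressor of Snail (0.87 ± 0.31, adjusted p = 0.0449), and Kdm1a, the demethylase that Snail recruits (0.82 ± 0.19, adjusted p = 0.00394). Ajuba fell short without any of the 5 normal arrays, any of MMTV-Cre replicates 1, 2, 5, 6 and 7, or the second Ad-Cre array (adjusted p = 0.0519 to 0.0907). The number of partners called ranged from 1, where a log2 change of 1 was also required, to 12 with array weights.

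Matrix, integrin and protease genes that mark mesenchymal cells were higher in 9 of 16 and lower in 0 (median log2 fold 0.76). The shares of all genes were 14.2% and 13.4%. Tnc, which encodes the stromal matrix protein tenascin-C, read 8.03 to 8.85 in normal tissue and 10.07 to 13.02 in Rb/p53 tumours, a rise of 3.47 ± 0.50 (limma adjusted p = 6.75e-05). Itga5, a fibronectin receptor subunit, rose by 1.85 ± 0.17 (adjusted p = 4.37e-07), and its ligand Fn1 by 0.52 ± 0.09 (adjusted p = 5.53e-04). Acta2, smooth muscle actin, did not pass at -0.96 ± 0.37 (adjusted p = 0.0599). It passed as lower without MMTV-Cre replicate 1, 3 or 7 (adjusted p = 0.0346 to 0.0485), with array weights (0.0363), with low genes left out (0.0495) and under cyclic loess (0.0361).

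Relatives of the 3 markers split, with 4 of 17 higher and 4 lower (median log2 fold -0.09), beside 14.2% and 13.4% of all genes. S100a6, beside S100a4 in the S100 family, rose by 2.21 ± 0.30 (limma adjusted p = 3.26e-05), with 11.60 to 12.54 on Rb/p53 arrays against 9.11 to 10.56 in normal tissue. Des, the filament protein of muscle, fell by 1.72 ± 0.20 (adjusted p = 4.91e-06), beside falls in 5 of 6 skeletal muscle and 5 of 8 pericyte and smooth muscle markers, whose part was not tested. Cdh3, the P-cadherin of basal cells, fell by 1.31 ± 0.29 (adjusted p = 0.00249).

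In p53 tumours, again against the shared normal arrays, junction genes were lower in 10 of 13 (Epcam -4.29, Mal2 -3.44), guard factors in 7 of 9 (Elf5 -4.40, Ehf -3.64) and hairpins in 2 of 5 (Mir200b -2.03, Mir205 -0.82, with the same doubt about their size). Without p53 replicate 2 it was 11 junction genes, 7 guard factors and 3 hairpins. With all p53 arrays kept, 8.34% of all genes were called higher and 12.1% lower. Luminal markers were lower in 5 of 8 (median -2.11), basal in 7 of 7 (median -2.10) and endothelial in 6 of 9, and their part in these values was not tested. Mesenchymal markers were higher in 6 of 16 (Tnc 4.19, Itga5 1.93) and lower in 1 (Mmp2 -0.75). Relatives were higher in 1 of 17 (S100a6 1.94) and lower in 5 (Cdh3 -1.92). Further factors gave Hmga2 as the 1 rise (2.24, limma adjusted p = 0.0242; 0.129 without p53 replicate 1 and 0.0646 without replicate 3) and Gsc as the 1 fall (-0.39, 0.0171; 0.0548 without replicate 1). Partners gave Id4 as lower (-1.93) and Smad4 as higher (0.46, adjusted p = 0.0292). Smad4 fell short without p53 replicate 2 (0.25), normal replicate 2 (0.44) or normal replicate 3 (0.44), and 6 partners were called without p53 replicate 2 and 1 without either of those normal arrays. Mmp2 missed without p53 replicate 2 (-0.52, adjusted p = 0.111), where 6 mesenchymal markers, 7 relatives and 3 further factors were called. Between the tumour genotypes 0 genes of any of these lists passed. Without p53 replicate 3, 1 further factor and 1 mesenchymal marker did, and with all 17 arrays in the fit 1 further factor and 1 partner did. With replicate 3 moved to the Rb/p53 tumours, 2 further factors, 2 partners, 1 hairpin and 1 mesenchymal marker passed. Foxc1, a forkhead factor of mesenchyme, was 2.28 ± 0.44 higher in Rb/p53 tumours (adjusted p = 0.109) and Id3 1.69 ± 0.43 (adjusted p = 0.124), each the largest difference of its list. Rab25, Kdm1a, Mir200a, Foxc1, Id3 and, for Rb/p53 tumours, Cdh3 were named after their values had been seen.

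Leaving out all transplanted Rb/p53 tumours changed both the number and the kind of tumours, which cannot be told apart. With only the nulliparous and the parous Rb/p53 tumour against normal tissue, 2005 of 19938 genes were called in place of 5503. Of the members, 3 were called in place of 5. The count was 9 of 13 junction genes, 6 of 9 guard factors, 2 of 5 hairpins, 2 of 12 further factors, 2 of 15 partners, 5 of 16 mesenchymal markers and 5 of 17 relatives. Epcam (-2.04, limma adjusted p = 0.101), Ehf (-2.27, 0.0672), Fn1 (0.46, 0.104), Id2 (-0.72, 0.157), Foxc2 (0.55, 0.508), Kdm1a (0.95, 0.119), Cdh3 (-1.06, 0.0972) and Mir200a (-0.64, 0.087) lost their calls. Snai1, Zeb2 and S100a4 kept theirs.

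Genes whose pattern across tumours was most like that of each member were sought among 9605 genes. These were protein-coding genes with a mean above the median gene, predicted genes and small RNAs being skipped. Likeness was the smaller of 2 Pearson correlations, over the 12 tumours and over the 9 Rb/p53 tumours, which share arrays. For Snai1 the nearest was Med27, a Mediator subunit (0.90), then Arpin and Gja1. Snai2 was nearest to Il6st, the gp130 cytokine receptor chain (0.91), then Fstl1 and Arpc1a. Cdh2 was nearest to Col1a2, a fibrillar collagen chain that is also among the fibroblast markers (0.90), then Apobec3 and Fstl1. Zeb1 lay nearest to Fam171b (0.92), Zeb2 to Mob3a (0.88), Twist1 to Selenoi (0.90), Twist2 to Pced1b (0.89), Prrx1 to Ip6k2 (0.88), Vim to Arhgap32 (0.90) and S100a4 to Eps8l2 (0.88). Fstl1 was named for both Snai2 and Cdh2. No member was among the 3 nearest genes of another. These values are given as description.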

How the data were processed

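The deposited values are log2 signals made by the authors with RMA, which corrects background, normalises arrays by quantiles and summarises probes, with Partek 5.6, per the submitters' processing notes. The genome build is not given in the sources used here. Of 35556 probe sets, 21789 have 1 gene symbol in GEO's platform annotation. The probe set with the highest mean over the 17 arrays was kept for each of 19938 genes. Differences were fitted with limma 3.58.1 in R 4.3.3 (lmFit, eBayes) over all genes, with Benjamini-Hochberg adjusted p below 0.05 as the threshold, and the method was tested on simulated data. Comparisons with normal tissue used all 17 arrays as 3 groups, those between tumours the 12 tumour arrays, and that of transplants the 7 MMTV-Cre arrays. Alternatives changed normalisation, weights, filters, probe set, arrays and the group of p53 replicate 3. Leaving out p53 replicate 2 together with that move was chosen after seeing the data. The members and gene lists were chosen with earlier results of these data known. Of each list the 2 largest called changes were named, plus Cdh1, Epcam, Grhl2, Ovol2, Esrp1, Fn1, Acta2, Tcf4, Sox9, Hmga2, Id1 and Id2. Arrays carry no counts, so their number limits the precision.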

Additional observations from a re-analysis of the deposited data

Results flagged for a closer look

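Each member was examined for a single array far from the rest of its group, where chance alone marks about 1 in 20. The groups were the 5 normal arrays, the 7 MMTV-Cre arrays and all 9 Rb/p53 arrays, which include those 7. Over all members this made 30 groups, which are thus not separate. In normal tissue, Twist2 was highest on replicate 1, at 10.10, with the next array at 9.69. That gap was 0.829 of the range of the 5 arrays. Prrx1 was lowest on MMTV-Cre replicate 7, at 9.16, with the next tumour at 11.03. The gap was 0.604 of the range, both among the 7 MMTV-Cre tumours and among all 9 Rb/p53 tumours.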

How the results depend on the processing

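Of the members, Snai1, Zeb2 and S100a4 kept their calls between Rb/p53 tumours and normal tissue under every alternative run, except where a log2 change of at least 1 was also required, which Zeb2 missed. Requiring that change left 1630 genes and 2 members there, and 1617 genes for p53 tumours. With the non-transplanted tumours alone, 2005 genes and 3 members were called, and Twist2 (-0.57), Prrx1 (-0.13), Tcf4 (-0.34), Sox9 (-0.41), Id1 (-0.18) and Mmp9 (-0.35) turned sign. Tcf4 did so under cyclic loess (-0.045), and Twist2 ranged from -0.091 to 0.39 as arrays were left out in turn. For p53 tumours against normal tissue, array weights called 5 members and turned Zeb1 (0.29), Twist1 (0.22) and Id1 (0.0065). Leaving out p53 replicate 2 and moving replicate 3 called 1 member and turned Zeb1 (0.57), Twist1 (0.45) and Id1 (0.28). Leaving out single arrays gave 2 to 4 members, with Zeb1 from -0.89 to 0.31, Zeb2 from -0.32 to 0.00126 and Twist1 from -0.75 to 0.25. Between Rb/p53 and p53 tumours, 3 genes passed with array weights, 2 each with low genes left out, quantile normalisation or cyclic loess, 0 with the non-transplanted tumours, and 12 with p53 replicate 2 left out and replicate 3 moved. Keeping all 17 arrays gave 356 genes and 2 members, and moving p53 replicate 3 gave 2044 genes and 1 member. Leaving out single arrays gave 1 to 1358 genes and 0 to 2 members. There Cdh2 was -0.59 with array weights, -0.76 with replicate 2 out and 3 moved, -0.0069 with MMTV-Cre tumours and -0.95 with non-transplanted ones, and -0.96 to 0.76 as single arrays were left out. Vim was -0.0024 with array weights, -0.00995 with replicate 2 out and 3 moved and -0.00115 with non-transplanted tumours, and -0.023 to 0.12 as single arrays were left out, and Zeb1 was -0.17 with replicate 2 out and 3 moved. Ad-Cre against MMTV-Cre gave 3 genes under cyclic loess and 1 to 30 without single arrays. Its small differences crossed 0 there for Zeb1 (-0.53 to 0.27), Zeb2 (-0.15 to 0.24), Snai1 (-0.11 to 0.26), Snai2 (-0.11 to 1.02), Twist1 (-0.029 to 0.16), Vim (-0.092 to 0.0056, and 0.0064 under quantile normalisation) and S100a4 (-0.36 to 0.064). Transplants against other tumours gave 4 to 158 genes without single arrays, with Zeb2 (-0.26 to 0.016), Snai1 (-0.11 to 0.057, and 0.012 under quantile normalisation), Snai2 (-0.33 to 1.82), Cdh2 (-0.56 to 3.19) and S100a4 (-0.79 to 1.27) crossing 0. Correlations with Cdh1 changed sign over the 12 tumours for Snai2 (0.093), Twist1 (0.055) and Vim (0.0027), and over the 7 MMTV-Cre tumours for Snai2 (0.034) and Cdh2 (-0.060). Without single arrays they ran from -0.34 to 0.25 for Snai2, -0.37 to 0.15 for Twist1, -0.20 to 0.53 for Cdh2, -0.33 to 0.13 for S100a4 and -0.030 to 0.40 for Prrx1. The causes were not tested. No paired analysis was possible because the labels carry no replicate numbers that tie samples of different groups. The number of arrays limits the precision.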
